A study of Mus musculus with 24 samples.

Results

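TAZ4SA was compared directly with YAP5SA in NIH 3T3, a fibroblast line from mouse embryos that grows without limit in culture. The comparison took the 6 libraries labelled TAZ4SA or YAP5SA (3 for each) of 24 in the series, and every gene whose counts averaged 5 or more across the 24 libraries, which left 14361 of the 39017 gene rows. The means nearest to that minimum were 5 just inside (B4galnt4, Gm7592 and Gm27030) and 4.96 just outside (Mill2, Ppbp and Gm4335). TAZ4SA and YAP5SA are full-length TAZ and YAP in which alanines replace serines that the LATS1/2 kinases phosphorylate. Each was delivered with a Flag tag by a retroviral vector, and the lines were pools of transduced cells selected with G418. The 3 replicates came from separate transductions of 1 cell line. The p-values here rest on the spread between such transductions, estimated jointly over all 24 libraries and not from TAZ4SA and YAP5SA alone. The empty vector libraries (EV, n = 3) carried the same vector and selection, and like both proteins they had been confluent for 48 h. EV was used to tell genes that differed in the strength of a change from genes that differed in its direction. The amount of each protein was not measured in these files, so a difference between TAZ and YAP and a difference in how much protein each line made cannot be told apart.

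TAZ (gene Wwtr1) and YAP (gene Yap1) are paralogous transcriptional co-activators at the end of the Hippo pathway. When the pathway is active, as in dense cultures, the LATS kinases phosphorylate both, and they are held in the cytoplasm and degraded. In the nucleus neither binds DNA alone, and both act through the TEAD transcription factors, which recognize a short motif with the core GGAATG. Ccn1, Ccn2 and Ankrd1 are their best known target genes.

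The 6 libraries held 16471181 to 26390310 counts, and the EV libraries 19981310 to 22419096. The TAZ4SA libraries were more unlike each other than those of the other groups. The median SD of log2 CPM over genes was 0.307 in TAZ4SA, 0.164 in YAP5SA and 0.145 in EV (CPM are counts scaled to the library total times its TMM factor). TAZ4SA replicate 2, the smallest library, was the nearest of the 3 to YAP5SA, and replicate 3 was the nearest to EV. Over genes, the log2 CPM of replicate 2 had r = 0.975 with the mean of the YAP5SA libraries. That of replicate 3 had r = 0.934 with the mean of the EV libraries. The TMM factors were 0.773 to 0.829 in YAP5SA, 0.81 to 1.04 in TAZ4SA and 1.04 to 1.06 in EV. The 10 fibroblast markers were all tested, and their summed level was 21930 to 23360 CPM in TAZ4SA, 25030 to 27460 in YAP5SA and 39400 to 42520 in EV. Markers of other cell types were low. The 7 haematopoietic markers summed to 14.3 to 55.0 CPM in TAZ4SA, 39.7 to 65.7 in YAP5SA and 3.15 to 4.37 in EV, with Adgre1 and Cd3e at no more than 3 counts in any of the 9 libraries. The 6 endothelial markers summed to 9.02 to 11.5 CPM in TAZ4SA, 6.18 to 7.56 in YAP5SA and 2.45 to 4.78 in EV, and Tie1 was at the same floor. The 6 skeletal muscle markers summed to 7.01 to 10.7, 2.88 to 5.38 and 0.23 to 0.62 CPM in the same order, with Myod1 and Actc1 at the floor. The part of other cells in the results was not tested. Counts at the 2 proteins' own mouse genes were similar in both lines and passed no test between them (adjusted p = 0.265 for Wwtr1 and 0.102 for Yap1). Wwtr1 stood at 164, 171 and 152 CPM in TAZ4SA, 143, 165 and 138 in YAP5SA and 129.6, 137 and 136 in EV. Yap1 stood at 118, 113 and 112 CPM in TAZ4SA, 102, 111 and 91.6 in YAP5SA and 193, 169.9 and 189 in EV, and it was lower than in EV in both lines (log2 fold changes of -0.69 and -0.86). Wwtr1 was higher than in EV in TAZ4SA (0.28, adjusted p = 0.0113) and did not pass that test in YAP5SA (0.15, adjusted p = 0.137). Since neither gene passed the test between the lines, these counts do not check which protein a library carried.

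Of the 14361 genes tested, 6087 (42.4%) were differentially expressed (DE) between TAZ4SA and YAP5SA at a Benjamini-Hochberg adjusted p under 0.05 from edgeR's quasi-likelihood test. There were 3274 genes (22.8% of those tested) higher in TAZ4SA and 2813 (19.6%) higher in YAP5SA. With library totals alone, without the TMM factor, the split was 4786 to 1805, so that 72.6% of the DE genes were higher in TAZ4SA in place of 53.8%. That scaling moved the median log2 difference of all genes from 0.05 to 0.25. Most differences were small. The median size of a DE difference was 0.69 on the log2 scale, 1739 DE genes differed by at least 1 and 468 by at least 2, and of these 355 were higher in TAZ4SA and 113 in YAP5SA. Every TAZ4SA library lay on one side of every YAP5SA library for 4972 of the 6087 DE genes (81.7%), against 40.8% of all genes tested. Leaving out 1 library of the 6 gave 4656 DE genes (without TAZ4SA replicate 3) to 7210 (without TAZ4SA replicate 2), and a fit of the 6 libraries alone gave 2910. The main fit shared its estimate of the spread over all groups, while the TAZ4SA libraries spread more than those of YAP5SA or EV. How far this accounts for the lower count was not tested.

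The DE genes were sorted by their calls against EV. There were 3125 genes that differed in strength (21.8% of those tested and 51.3% of the DE genes). In contrast, 89 genes differed in direction (0.62% of those tested and 1.46% of the DE genes), being DE against EV for both proteins with opposite signs. A further 2564 genes were DE against EV for 1 protein only (17.9%), and 309 for neither (2.15%), and for these strength and direction cannot be separated. The order of the 2 largest classes depended on the setting. Without TAZ4SA replicate 2 there were 3170 strength genes and 3512 for 1 protein only, in the fit of 9 libraries 2009 and 2050, and with a change of at least 1 on the log2 scale 641 and 930. The 309 genes became 166 without TAZ4SA replicate 3, 192 without YAP5SA replicate 1 and 466 without EV replicate 1. A set of 3986 genes (27.8%) changed in the same direction in both lines without a called difference between them, and the remaining 4288 (29.9%) had neither. The same EV libraries enter both comparisons with EV, in which 8253 genes (57.5%) were DE for TAZ4SA (31.1% higher and 26.4% lower than EV) and 10220 (71.2%) for YAP5SA (36.3% higher and 34.9% lower).

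**Figure D1:**
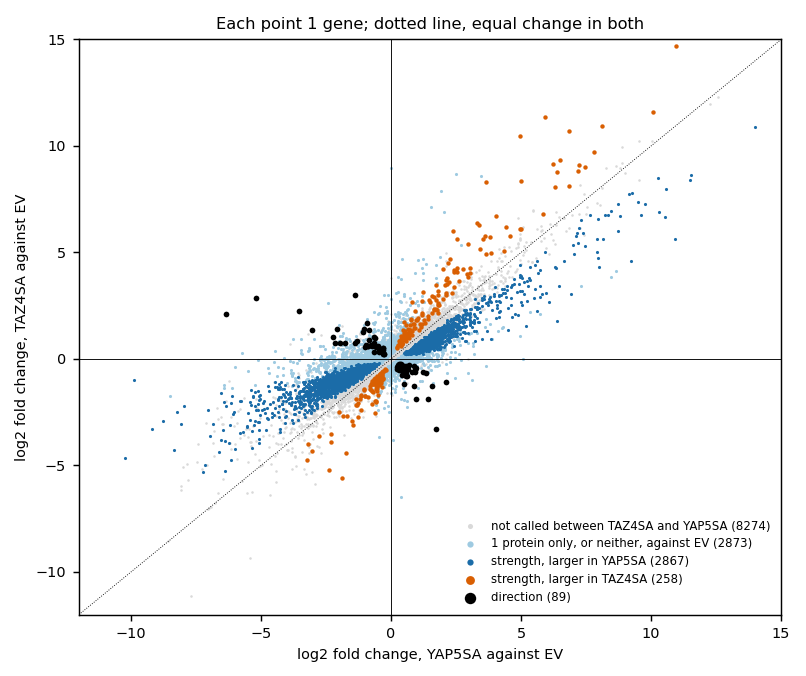
Each point is 1 of the 14361 genes tested, with its log2 fold change against EV in YAP5SA (horizontal axis) and in TAZ4SA (vertical axis), coloured by class, and both axes share the EV libraries. The 89 genes that differed in direction (black) lie at the upper left and the lower right, and the 2867 strength genes with the larger change in YAP5SA (dark blue) lie between the dotted line of equal change and the horizontal line at 0.

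Of the 89 genes, 39 rose in TAZ4SA and fell in YAP5SA (0.272% of those tested), and 50 fell in TAZ4SA and rose in YAP5SA (0.348%). All 89 had TAZ4SA and YAP5SA libraries that did not overlap, and for 68 every EV library lay between the 2 groups. The class itself makes both arrangements likely, and 154 (1.07%) of all tested genes had the second. The list holds 85 protein-coding genes, and 24 of the 89 overlap another gene, with which they may share reads. In 13 of them both changes against EV were at least 1 on the log2 scale. The class was sensitive to single libraries. It held 59 genes without EV replicate 2 (29 up in TAZ4SA and 30 down) and 172 without TAZ4SA replicate 2 (75 up and 97 down), and 50 and 80 of the 89 remained in these lists. With library totals alone it held 100 genes (71 up in TAZ4SA and 29 down), and 34 of the 89 remained.

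Among the genes that averaged 50 counts or more over the 9 libraries, the largest of these differences was that of Pappa2 (ENSMUSG00000073530; chromosome 1, 158711727 to 158980490 of mm10), which encodes a secreted protease that cleaves IGF-binding proteins. It stood at 228, 282 and 290.4 CPM in TAZ4SA, 5.54, 5.15 and 3.93 in YAP5SA and 57.9, 48 and 63.5 in EV. All TAZ4SA libraries were above, and all YAP5SA libraries below, every EV library. The log2 difference TAZ4SA minus YAP5SA was 5.76 (SE 0.32, adjusted p = 7.50e-11), made of log2 fold changes against EV of 2.24 in TAZ4SA and -3.52 in YAP5SA. Faah (ENSMUSG00000034171; chromosome 4, 115967145 to 116017926) encodes fatty acid amide hydrolase, which breaks down anandamide and related lipids. Its level was 5.95, 8.47 and 12.9 CPM in TAZ4SA, 0.359, 0.294 and 0.634 in YAP5SA and 5.15, 2.15 and 3.19 in EV, a log2 difference of 4.44 (SE 0.36, adjusted p = 2.17e-08). Adamts9 (ENSMUSG00000030022; chromosome 6, 92772699 to 92943492), a secreted metalloprotease that cleaves matrix proteoglycans, had 20.3, 14.4 and 25.3 CPM in TAZ4SA, 0.77, 0.687 and 1.46 in YAP5SA and 2.07, 3.25 and 2.21 in EV, and differed by 4.40 (SE 0.37, adjusted p = 3.55e-08). Both genes had the EV libraries between the groups, and Adamts9 overlaps 2 genes on the opposite strand. Prelp (ENSMUSG00000041577; chromosome 1, 133910304 to 133921414) encodes a small leucine-rich proteoglycan of connective tissue. It had 101, 146 and 144 CPM in TAZ4SA, 12.1, 14.8 and 7.86 in YAP5SA and 36.5, 68.8 and 41.8 in EV, with a log2 difference of 3.49 (SE 0.37, adjusted p = 5.45e-07) and no overlap among the 3 groups.

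In the other direction, Tagln (ENSMUSG00000032085; chromosome 9, 45929619 to 45936058) encodes transgelin, an actin-binding protein of smooth muscle and contractile fibroblasts. It stood at 28.7, 21.4 and 20.6 CPM in TAZ4SA, 169, 156 and 180.3 in YAP5SA and 69.4, 35.4 and 66.5 in EV. EV replicate 2 was low in its group but still above every TAZ4SA library. The log2 difference was -2.84 (SE 0.30, adjusted p = 4.08e-07), from -1.28 in TAZ4SA and 1.56 in YAP5SA, and the gene overlaps Pcsk7 on the opposite strand. Cdh17 (ENSMUSG00000028217; chromosome 4, 11758147 to 11817895), a cadherin known from liver and intestine, had 2.48, 1.8 and 1.36 CPM in TAZ4SA, 20.0, 14.9 and 16.6 in YAP5SA and 3.88, 3.44 and 4.6 in EV, and differed by -3.19 (SE 0.22, adjusted p = 2.28e-09). Ang2 (ENSMUSG00000047894; chromosome 14, 51195324 to 51199148) is a ribonuclease of the angiogenin family, whose members are similar in sequence, so its reads may be split among them. Its level was 1.44, 0.375 and 0.264 CPM in TAZ4SA, 10.3, 4.46 and 6.46 in YAP5SA and 3.29, 1.86 and 2.74 in EV, a log2 difference of -3.31 (SE 0.46, adjusted p = 1.19e-05). Angpt4 (ENSMUSG00000027460; chromosome 2, 151911210 to 151945337), a ligand of the TIE2 receptor, had 7.09, 6.6 and 3.3 CPM in TAZ4SA and 50.2, 37.8 and 30.5 in YAP5SA, a log2 difference of -2.82 (SE 0.39, adjusted p = 1.02e-05). Its EV libraries, at 13, 31.8 and 16.5 CPM, were above every TAZ4SA library, but replicate 2 overlapped the YAP5SA group. All 8 genes kept the sign and the call of their difference between TAZ4SA and YAP5SA in every alternative in which they were fitted. That does not cover their calls against EV. The rise of Angpt4 in YAP5SA against EV was 0.95 on the log2 scale (adjusted p = 0.0187), below the minimum of 1 in 1 alternative.

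**Figure D2:**
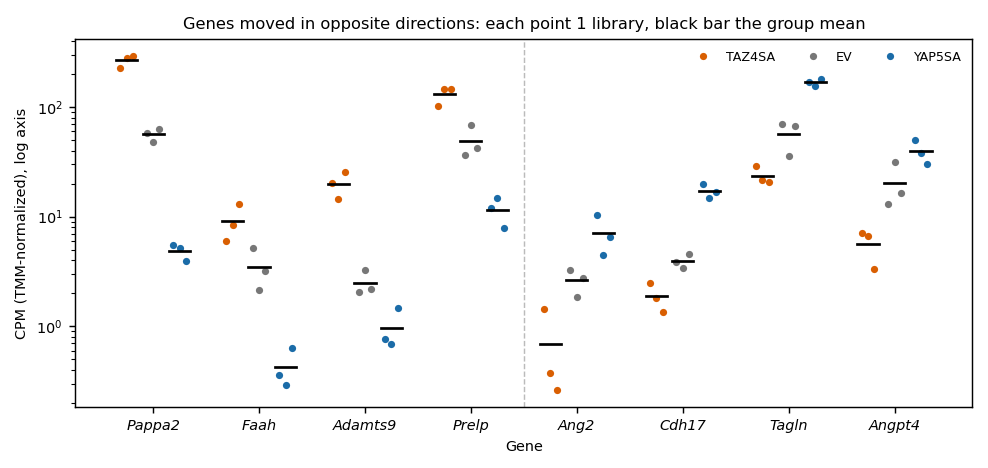
CPM (log axis) of the 4 genes with the largest differences in each direction among those averaging 50 counts or more, for TAZ4SA (orange), EV (grey) and YAP5SA (blue), with each point 1 library and the black bar the mean of 3. To the left of the dashed line TAZ4SA is highest and YAP5SA lowest, from 228, 282 and 290.4 CPM against 5.54, 5.15 and 3.93 for Pappa2, and to its right the order of the group means is turned.

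The gene lists placed further members of the class among named functions. Of 22 genes of sterol synthesis and uptake, 3 differed in direction, and all 3 fell in TAZ4SA and rose in YAP5SA. Mvd, which encodes mevalonate decarboxylase, stood at 37.4, 58.3 and 57.9 CPM in TAZ4SA, 148, 115 and 149.8 in YAP5SA and 63.2, 108 and 99.9 in EV, a log2 difference of -1.43 (SE 0.27, adjusted p = 2.77e-04). Fdft1, which encodes squalene synthase, had 91.7, 155 and 119.5, 365, 262 and 343 and 144, 194 and 179 CPM in the same order (-1.41, SE 0.22, adjusted p = 3.37e-05). The YAP5SA libraries of both genes lay above every TAZ4SA library, but 1 call against EV of each was near the threshold. The adjusted p against EV was 0.0119 in TAZ4SA and 0.0464 in YAP5SA for Mvd. For Fdft1 it was 0.0486 in TAZ4SA and 6.57e-04 in YAP5SA, and TAZ4SA replicate 2 overlapped the EV libraries. Scap, which escorts SREBP and was picked after its value was seen, was in the same class with a difference of -0.90 (adjusted p = 1.25e-05). Among elastic fibre genes, Fbln5 (fibulin-5) had 118, 207 and 182 CPM in TAZ4SA, 364, 367 and 385 in YAP5SA and 262, 289 and 271 in EV, a difference of -1.14 (adjusted p = 1.00e-05). Eln, which encodes elastin, went the other way at very low counts. It had 1.54, 1.27 and 1.5 CPM in TAZ4SA, no count in any YAP5SA library and 0.338, 0.0955 and 0.133 CPM in EV, which makes it at least 8.77-fold higher in TAZ4SA than in YAP5SA (against a floor of 3 counts in each library). Of the actin-binding genes, Flna (filamin A) was in the class of Tagln with a difference of -0.81 (adjusted p = 7.98e-05). Of the ephrin receptors, Ephb3 was, with 86.1, 110.4 and 78.4 CPM in TAZ4SA, 212, 214 and 216 in YAP5SA and 116, 104 and 128 in EV (-1.23, adjusted p = 8.24e-07). Pfkl, the liver-type phosphofructokinase, differed by -0.77 (adjusted p = 1.79e-04).

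Other genes of the class, named after their values were seen, are given by role. Several that rose in TAZ4SA and fell in YAP5SA encode membrane receptors or signalling proteins. Unc5b, a netrin receptor, had 11.7, 15.7 and 21 CPM in TAZ4SA, 1.9, 1.42 and 1.71 in YAP5SA and 7.26, 7.21 and 9.38 in EV, a log2 difference of 3.27 (SE 0.29, adjusted p = 5.85e-08). Ptprm, a receptor tyrosine phosphatase that binds itself between cells, had 51.2, 49.1 and 44.3 CPM, 6.67, 7.31 and 5.13 and 27.9, 26.6 and 31.3 in the same order (2.91, adjusted p = 2.04e-11). The YAP5SA libraries of both genes were far below all others. Dagla, which makes the endocannabinoid 2-arachidonoylglycerol, was in the same class as Faah, with a difference of 1.54 (adjusted p = 1.48e-07). Apoe, the lipid carrier apolipoprotein E, had 3.57, 2.77 and 4.93 CPM in TAZ4SA, 1.33, 0.932 and 1.58 in YAP5SA and 1.69, 2.34 and 1.81 in EV (1.58, adjusted p = 4.25e-05). Mmp28 and Col28a1, a matrix metalloprotease and a collagen, differed by 2.73 and 2.34. Among nuclear proteins, Eya1, a cofactor and phosphatase of organ development, differed by 2.15, Dnmt3a, a DNA methyltransferase, by 0.79, and Rbpj, the DNA-binding partner of Notch, by 0.84. The pseudogene Rbpj-ps3 was in the class too (0.79), and the pair may share reads. Scrib, a polarity scaffold that is also linked to Hippo signalling, differed by 0.98 (adjusted p = 1.17e-05). Ifit3b and Rtp4, both induced by interferon, differed by 2.42 and 2.17.

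Of those that fell in TAZ4SA and rose in YAP5SA, C1qtnf2, a secreted protein related to adiponectin, had 0.0496, 0 and 0 CPM in TAZ4SA, 0.924, 0.589 and 0.76 in YAP5SA and 0.127, 0.382 and 0.177 in EV, a log2 difference of -5.04 (SE 0.80, adjusted p = 4.56e-05). Its counts were low in every library. Bok, a relative of BCL2, had 2.13, 3.82 and 6.51 CPM in TAZ4SA, 19.9, 16.1 and 19.8 in YAP5SA and 10.2, 10.8 and 9.16 in EV (-2.14, adjusted p = 2.78e-05). Gpc1, a glypican heparan sulphate proteoglycan, had 31.8, 41.6 and 26.2, 104, 98.7 and 116 and 65.8, 91.6 and 68 CPM in the same order (-1.68, adjusted p = 8.45e-08). The YAP5SA libraries were the highest in both genes. Cavin1, a coat protein of caveolae, and Parva, a focal adhesion protein that binds actin, differed by -1.10 and -0.73. Gsto2, Msra and Mgst3, which encode a glutathione transferase, a methionine sulphoxide reductase and a microsomal glutathione transferase, differed by -1.98, -1.43 and -1.16. Ctsa, Pla2g15, Acp2 and Spns1, which encode lysosomal proteins, differed by -1.02, -0.80, -0.59 and -0.63, and no list of such genes was counted.

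The larger change lay with YAP5SA for 2867 of the 3125 strength genes (91.7%, or 20% of all genes tested), of which 1408 (9.8%) rose and 1459 (10.2%) fell in both lines. It lay with TAZ4SA for 258 genes (1.8%), 155 up (1.08%) and 103 down (0.717%). The share with the larger change in YAP5SA was 86.7% (without TAZ4SA replicate 3) to 94.1% (without YAP5SA replicate 3) when 1 library was left out and 88.9% to 92.9% under the other alternatives. The number with the larger change in TAZ4SA was 156 without YAP5SA replicate 3 and 169 without YAP5SA replicate 1. Over all strength genes the median absolute log2 fold change against EV was 0.87 in TAZ4SA and 1.53 in YAP5SA. The spread among the TAZ4SA libraries ran along this difference. For the genes up in both and more in YAP5SA, the median over genes of the log2 ratio to the EV mean was 0.76, 0.98 and 0.51 in TAZ4SA replicates 1, 2 and 3 and 1.43, 1.37 and 1.39 in YAP5SA. For those down in both it was -0.98, -1.23 and -0.58 in TAZ4SA and -1.77, -1.70 and -1.78 in YAP5SA. Every TAZ4SA library was thus nearer to EV than every YAP5SA library, and replicate 3 was the nearest. The class fixes the order of the groups but not that of the 3 TAZ4SA libraries. In the genes with the larger change in TAZ4SA the libraries lay closer together, at 2.11, 2.11 and 2.15 for the rises and -1.22, -1.04 and -1.20 for the falls, against 1.21, 1.20 and 1.11 and -0.53, -0.70 and -0.62 in YAP5SA.

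**Figure D3:**
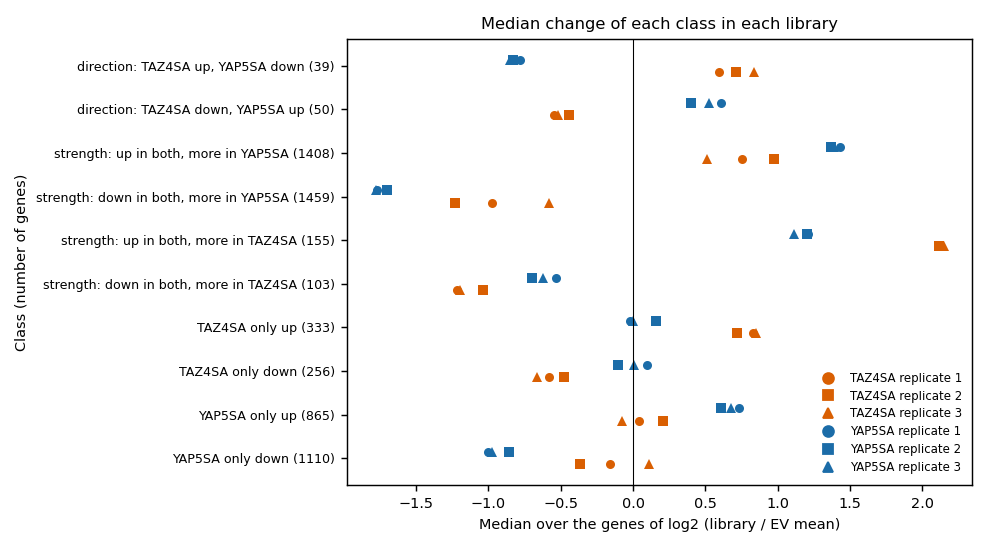
Median over the genes of a class of the log2 ratio of a library to the EV mean, for the 3 TAZ4SA (orange) and 3 YAP5SA libraries (blue), with marker shape giving the replicate and the number of genes in parentheses. In the 2 classes with the larger change in YAP5SA the TAZ4SA libraries spread from 0.51 to 0.98 and from -1.23 to -0.58, while the YAP5SA libraries lie at 1.37 to 1.43 and at -1.78 to -1.70.

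Krt7 (ENSMUSG00000023039; chromosome 15, 101411043 to 101430313), a keratin of simple epithelia, was among the clearest genes raised more by YAP5SA. It stood at 11.1, 10.2 and 9.02 CPM in TAZ4SA, 296, 203 and 243 in YAP5SA and 1.98, 4.15 and 2.79 in EV. The groups did not overlap, the rise against EV being 1.77 in TAZ4SA and 6.38 in YAP5SA on the log2 scale (difference -4.61, SE 0.22, adjusted p = 6.97e-12). The 7 epithelial markers, without Krt7, summed to 1.11 to 1.96 CPM in TAZ4SA, 5.87 to 7.66 in YAP5SA and 0.32 to 0.62 in EV, on library totals alone. Of these, Epcam, Krt5, Krt18 and Krt19 were at no more than 3 counts in any of the 9 libraries. Pax8, a transcription factor of thyroid and kidney, had no count in EV, 0, 0.375 and 0.44 CPM in TAZ4SA and 15.2, 8.78 and 7.79 in YAP5SA. It was at least 78.9-fold higher in YAP5SA than in EV and differed by -5.28 (adjusted p = 1.27e-06) between the proteins, and TAZ4SA replicate 1 had none. Crct1, the third gene of the rule, had 0.447, 0.824 and 0.44 CPM in TAZ4SA and 15, 3.24 and 5.64 in YAP5SA and no count in EV (difference -3.87, adjusted p = 7.73e-05).

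The genes raised more by TAZ4SA were led by Hapln1, Sorbs2 and Vip, all near 0 in EV. Vip (ENSMUSG00000019772; chromosome 10, 5639218 to 5647617) encodes vasoactive intestinal peptide, a neuropeptide. It had no count in EV, 167, 102 and 167 CPM in TAZ4SA and 13.5, 9.42 and 9.38 in YAP5SA, a difference of 3.75 (SE 0.25, adjusted p = 1.72e-08). It was at least 1082-fold higher in TAZ4SA, and at least 80.2-fold higher in YAP5SA, than in EV. Sorbs2 (ENSMUSG00000031626; chromosome 8, 45507788 to 45827906), an adaptor protein of the actin cytoskeleton, had 191, 119 and 171 CPM in TAZ4SA, 15.1, 9.27 and 8.17 in YAP5SA and 0, 0.286 and 0 in EV (difference 3.88, SE 0.34, adjusted p = 5.36e-08). Hapln1, which links hyaluronan to proteoglycans, had 10.5, 6.67 and 25.2 CPM in TAZ4SA and 0.411, 0.0981 and 0.507 in YAP5SA (difference 5.42, adjusted p = 9.99e-05) and no count in EV. Its 3 TAZ4SA libraries were far apart, and the call was lost with DESeq2.

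Among genes lowered in both lines, the largest differences were in transcripts that YAP5SA took to 0 or nearly so. Wfdc18, a small secreted protein with a WAP domain, had 6.54, 3.34 and 5.35 CPM in EV, 2.53, 2.25 and 2.77 in TAZ4SA and no count in any YAP5SA library, at least 15.4-fold higher in TAZ4SA than in YAP5SA. Fam19a1, a secreted chemokine-like protein, had 7.09, 5.35 and 6.64 CPM in EV, 0.447, 0.45 and 1.28 in TAZ4SA and 0, 0 and 0.0634 in YAP5SA. Speer4a, which has near-identical family members and may share reads with them, had 11.1, 6.02 and 13.8 CPM in EV, 1.69, 1.2 and 1.19 in TAZ4SA and 0, 0.0491 and 0 in YAP5SA. The genes lowered more by TAZ4SA differed less. Ptger4, a prostaglandin E2 receptor, had 3.13, 2.7 and 3.52 CPM in TAZ4SA, 11.7, 12.7 and 11.2 in YAP5SA and 15.2, 21.4 and 18.8 in EV (difference -1.91, SE 0.23, adjusted p = 2.12e-06). Nbl1, a secreted BMP antagonist, had 8.33, 14 and 10.1 CPM, 35.9, 30.1 and 33.6 and 102, 54.9 and 115 in the same order (difference -1.63, adjusted p = 6.81e-05). Myo1h, an unconventional myosin, differed by -1.44 (adjusted p = 3.55e-05).

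YAP5SA accounted for 1975 of the 2564 genes (865 up and 1110 down, 6.02% and 7.73% of those tested) and TAZ4SA for 589 (333 up and 256 down, 2.32% and 1.78%). In all of them the difference between the proteins itself was called. Here and below, a change in 1 line only refers to the call against EV, and a missed call is not an absence of change. The median log2 fold change against EV of the 333 genes was 0.84 in TAZ4SA and 0.06 in YAP5SA, and that of the 865 genes was 0.09 in TAZ4SA and 0.67 in YAP5SA. Panx3, a channel protein of the pannexin family, had 5.46, 5.47 and 14 CPM in TAZ4SA, at most 3 counts in each YAP5SA library and at most 1 in each EV library. It was at least 50.7-fold higher in TAZ4SA than in YAP5SA. Hp, which encodes the haemoglobin-binding protein haptoglobin, had 2.98, 13.5 and 8.53 CPM in TAZ4SA, 0.359, 0.245 and 0.697 in YAP5SA and 0.211, 0.43 and 0.31 in EV (difference 4.28, SE 0.47, adjusted p = 6.51e-07). For both genes the TAZ4SA libraries lay above all others. Rgs16, a regulator of G-protein signalling, and Serpina3h, annotated as a pseudogene in a cluster of similar serpins, were lower in TAZ4SA only, with differences of -2.43 (adjusted p = 2.82e-05) and -2.86 (adjusted p = 2.48e-04).

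C3, the central complement component, and Angptl4, an inhibitor of lipoprotein lipase, led the genes lowered by YAP5SA only. C3 had 20.2, 34.8 and 19.2 CPM in TAZ4SA, 0.975, 2.6 and 0.76 in YAP5SA and 41.8, 33.8 and 39.2 in EV (difference 4.04, SE 0.50, adjusted p = 3.44e-06). Angptl4 had 17.8, 19.5 and 15 CPM, 1.13, 1.47 and 1.08 and 16.7, 27.9 and 11.1 in the same order (difference 3.81, SE 0.38, adjusted p = 2.10e-07). In both, the TAZ4SA and EV libraries overlapped, and the YAP5SA libraries were far below. Cpa4, a carboxypeptidase, had 1.09, 0.974 and 0.704 CPM in TAZ4SA, 17.6, 10.4 and 16 in YAP5SA and 0.675, 2.15 and 0.708 in EV (difference -3.99, adjusted p = 1.09e-06). Igf2os (-2.54, adjusted p = 1.80e-05) lies antisense to Igf2 (-1.63, adjusted p = 0.0101), which encodes the growth factor IGF2, and reads of the pair may have been counted together.

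Of 20 target genes tested, 7 were higher in YAP5SA (35%, against 19.6% of all genes) and 0 were higher in TAZ4SA (1 without YAP5SA replicate 1). A further 9 changed in the same direction in both lines with no called difference between them. Against EV, 10 rose and 5 fell in TAZ4SA (31.1% and 26.4% of all genes), and 11 rose and 5 fell in YAP5SA (36.3% and 34.9%). The 3 best known targets did not behave alike. Ccn1 (ENSMUSG00000028195; chromosome 3, 145646976 to 145649981), a secreted matricellular protein, stood at 299, 489.7 and 337 CPM in TAZ4SA, 2461, 1731 and 2191 in YAP5SA and 42.9, 63.8 and 61.5 in EV. It rose in both lines and more in YAP5SA, with a log2 difference of -2.50 (SE 0.38, adjusted p = 2.78e-05) and no overlap between groups. Ccn2, its close relative, had 174, 208 and 437 CPM in TAZ4SA, 426, 174 and 399 in YAP5SA and 14.6, 18.3 and 19.9 in EV, and the difference of -0.29 (SE 0.37, adjusted p = 0.562) was within the spread of the replicates. Ankrd1, an ankyrin-repeat protein of muscle, had 171, 171 and 374 CPM in TAZ4SA, 204, 162 and 171 in YAP5SA and 15.7, 31.5 and 18.6 in EV, and differed by 0.42 (SE 0.30, adjusted p = 0.276). TAZ4SA replicate 3 was the highest of its group for both Ccn2 and Ankrd1.

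Amotl2, Lats2, Ptpn14 and Nuak2, of which the first 3 encode inhibitors of YAP and TAZ, rose in both lines and more in YAP5SA, by smaller margins. Ptpn14 had 246, 244 and 207 CPM in TAZ4SA, 371, 343 and 332 in YAP5SA and 119, 99.7 and 109 in EV (difference -0.59, SE 0.10, adjusted p = 1.45e-04). Amotl2 differed by -0.68 (adjusted p = 0.00144), Nuak2 by -0.76 (adjusted p = 0.00105) and the kinase gene Lats2 by -0.46 (adjusted p = 0.00959), a call that was lost without TAZ4SA replicate 1 or YAP5SA replicate 1. Axl, a receptor tyrosine kinase, was called against EV in YAP5SA only, with 862, 889.7 and 1026 CPM in TAZ4SA, 1738, 1474 and 1679 in YAP5SA and 843, 816 and 847 in EV (difference -0.82, SE 0.13, adjusted p = 5.73e-05). Its TAZ4SA libraries also lay above every EV library. Tgfb2 was the exception, since it fell in TAZ4SA (-1.10), did not pass the test in YAP5SA (-0.26) and differed by -0.85 (adjusted p = 0.00211).

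**Figure D4:**
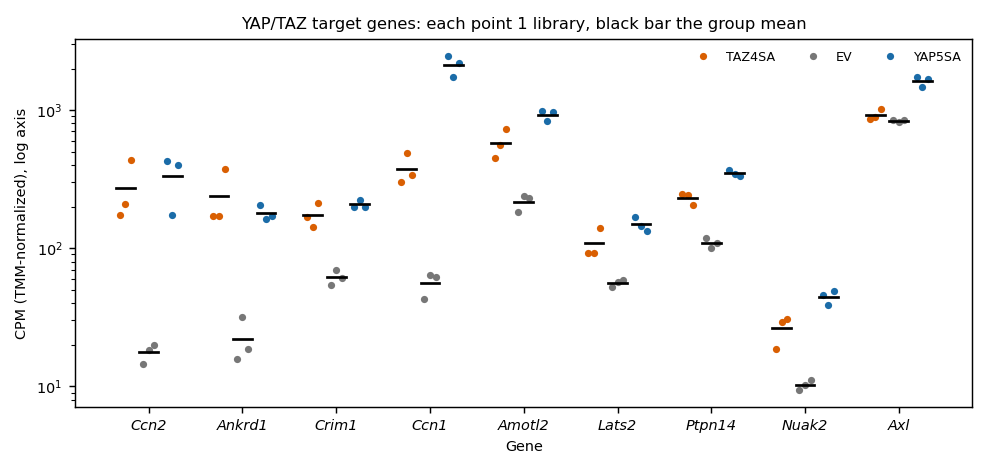
CPM (log axis) of 9 YAP/TAZ target genes in TAZ4SA (orange), EV (grey) and YAP5SA (blue), with each point 1 library and the black bar the mean of 3. Ccn2, Ankrd1 and Crim1 reach similar levels with both proteins, while Ccn1 stands at 299, 489.7 and 337 CPM in TAZ4SA and 2461, 1731 and 2191 in YAP5SA.

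The TEAD core motif was present around the start of some genes of both kinds. It was searched as GGAATG and its reverse complement CATTCC in the RefSeq windows (GRCm38.p6) from 250 bases before to 50 after each gene start, which were given for 10201 of the tested genes. A match was found for 7 of 13 target genes (53.8%), against 14.7% of all tested genes and 12.5% of all windows. The share was 20.6% (13 of 63) for the genes that differed in direction and 14.5% for those that differed in strength. The upstream part of 4 windows follows, 5′ to 3′ on the strand of the gene and with the motif in capitals, because these targets were raised by both proteins but only the first 3 were raised more by YAP5SA.
Ccn1 (chr3:145649986-145650235, minus strand): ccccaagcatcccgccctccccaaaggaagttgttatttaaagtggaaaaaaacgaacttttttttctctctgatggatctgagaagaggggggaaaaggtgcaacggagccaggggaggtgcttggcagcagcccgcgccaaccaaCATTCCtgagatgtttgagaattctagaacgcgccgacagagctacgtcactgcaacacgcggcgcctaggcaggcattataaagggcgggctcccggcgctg
Amotl2 (chr9:102717554-102717803, plus strand): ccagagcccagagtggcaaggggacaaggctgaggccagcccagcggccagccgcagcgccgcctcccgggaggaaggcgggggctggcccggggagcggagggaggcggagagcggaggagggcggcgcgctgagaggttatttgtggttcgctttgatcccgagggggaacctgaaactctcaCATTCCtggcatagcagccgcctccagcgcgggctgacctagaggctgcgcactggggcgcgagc
Ptpn14 (chr1:189728018-189728267, plus strand): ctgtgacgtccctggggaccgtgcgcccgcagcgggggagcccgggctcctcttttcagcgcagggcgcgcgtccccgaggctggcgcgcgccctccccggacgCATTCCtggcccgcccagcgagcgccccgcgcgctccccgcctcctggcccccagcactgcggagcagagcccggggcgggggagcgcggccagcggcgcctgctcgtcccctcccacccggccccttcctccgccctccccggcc
Ankrd1 (chr19:36119845-36120094, minus strand): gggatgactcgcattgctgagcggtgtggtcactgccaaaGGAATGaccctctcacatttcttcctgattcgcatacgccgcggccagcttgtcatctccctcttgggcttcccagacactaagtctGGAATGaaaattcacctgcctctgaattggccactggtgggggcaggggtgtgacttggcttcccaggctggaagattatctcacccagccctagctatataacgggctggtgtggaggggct
The motif begins 103, 65 and 146 bases before the start in Ccn1, Amotl2 and Ptpn14, and Ankrd1 holds 2 copies in the opposite orientation. A match is a description of the letters and not a measured binding site.

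Of 30 genes of the Hippo pathway and its partners, 5 were higher in TAZ4SA and 9 in YAP5SA, a balance that turned to 12 and 6 with library totals alone. The 5 higher in TAZ4SA were Sav1, Lats1, Mob1a, Mob1b and Taok1, which encode kinases, a scaffold and kinase activators of the pathway, and all 5 were lower in YAP5SA than in EV. Lats1 had 72.6, 60.0 and 97.4 CPM in TAZ4SA, 34.4, 38.7 and 34.5 in YAP5SA and 80.1, 95.5 and 86.6 in EV (difference 1.10, SE 0.13, adjusted p = 2.53e-06), and Sav1 had 68.7, 71.1 and 71.7, 44.4, 46.9 and 42.4 and 109, 102 and 111 CPM in the same order (0.66, adjusted p = 5.72e-06). The YAP5SA libraries lay below all others in both genes. The LIM protein genes Ajuba and Wtip, whose products inhibit LATS kinases, were raised more by YAP5SA, with differences of -1.05 (adjusted p = 2.64e-06) and -0.72 (adjusted p = 3.91e-04). Of the 4 TEAD genes only Tead4 was called between the proteins (-0.61, adjusted p = 0.00475). Vgll4, a TEAD-binding cofactor that competes with YAP, was raised in YAP5SA only (-0.77, adjusted p = 1.76e-04).

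The lists of other functions fell to both sides of the background of 22.8% higher in TAZ4SA and 19.6% higher in YAP5SA. Genes of secreted defence signals were often higher in TAZ4SA. Of 20 chemokine and cytokine genes, 12 were higher in TAZ4SA and 0 in YAP5SA (9 to 12 and 0 to 1 when 1 of the 9 libraries was left out). The median log2 difference was 1.10, against 0.05 for all genes. Ccl2, the monocyte attractant, fell in both lines and further in YAP5SA, with 8.73, 5.7 and 15.4 CPM in TAZ4SA, 4.16, 1.72 and 2.03 in YAP5SA and 68, 162 and 91 in EV. Il33, an alarmin, had 1.34, 2.17 and 4.49 CPM, 0.103, 0.54 and 0.253 and 30.0, 20.8 and 32 in that order (difference 3.14, adjusted p = 0.00242). Ccl5, Ccl9, Cxcl5 and Cxcl10 rose in TAZ4SA only, at low levels for 3 of the 4, and Ccl5 had 1.59, 2.1 and 0.792 CPM in TAZ4SA and at most 3 counts in each YAP5SA library. Of 26 interferon response genes, 14 were higher in TAZ4SA and 3 in YAP5SA, and 10 belonged to the genes called for TAZ4SA only. When 1 library was left out, 11 to 14 were higher in TAZ4SA and 0 to 6 in YAP5SA, the 0 without TAZ4SA replicate 3 or YAP5SA replicate 1 and the 6 without TAZ4SA replicate 2. The lean of this list depended on genes with low counts. With at least 10 counts required in every library, 17 members remained, 7 higher in TAZ4SA and 2 in YAP5SA. The median log2 difference of the list was then -0.0013, in place of 0.63. Ifit1, which binds foreign RNA, had 7.69, 10.3 and 7.61 CPM in TAZ4SA, 1.13, 1.67 and 0.634 in YAP5SA and 1.31, 2.1 and 2.08 in EV (difference 2.86, SE 0.28, adjusted p = 2.11e-07). Isg15, Irf9, Oasl2 and Mx2 were likewise higher in TAZ4SA, by 1.44, 0.89, 2.78 and 2.35. Ifit2 and Stat2 went the other way, by -0.52 and -0.41, calls that held in 10 of 18 alternatives each. The antigen presentation genes B2m, H2-K1, H2-D1, Tap1 and Tap2 were not called between the proteins.

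Of 30 genes of matrix glycoproteins and proteoglycans, 15 were higher in TAZ4SA and 3 in YAP5SA. Part of this lean came from genes with low counts. When at least 10 counts were required in every library, 24 members remained, 9 higher in TAZ4SA and 3 in YAP5SA. The median log2 difference of the list was then 0.35, in place of 0.69. By the median the differences were largest in the small leucine-rich proteoglycans, which bind collagen fibrils. Of 8 tested, 7 were higher in TAZ4SA, and the median log2 fold change against EV was -1.13 in TAZ4SA and -3.55 in YAP5SA. Dcn (decorin) had 359, 527 and 362 CPM in TAZ4SA, 38.1, 71.8 and 52.3 in YAP5SA and 2181, 2729 and 2391 in EV, so it fell in both lines and further in YAP5SA (difference 2.94, adjusted p = 7.00e-05). Lum, Ogn and Aspn followed the same order, Fmod and Omd were lowered by YAP5SA only, and Prelp differed in direction. Bgn was not called, with a difference of 0.27. Aspn and Ogn were highest in TAZ4SA replicate 3, at 152 and 291 CPM against 28.7 to 41.9 and 94.5 to 118 in the other 2. Of 11 matricellular genes 4 were higher in TAZ4SA, among them Postn (periostin), with 260.0, 251 and 484 CPM in TAZ4SA, 52, 78.1 and 62.7 in YAP5SA and 2316, 3433 and 3224 in EV. Of 22 collagen genes 4 were higher in TAZ4SA and 2 in YAP5SA (2 and 1 without TAZ4SA replicate 3, and 1 in YAP5SA without YAP5SA replicate 1). The ERK feedback genes (7 of 15 higher in TAZ4SA, 0 in YAP5SA) and the Hox genes (7 of 14 and 0) showed the same side. Spred2, an inhibitor of RAF activation, had 34.5, 33.1 and 42.2 CPM in TAZ4SA, 10.8, 11.5 and 10.3 in YAP5SA and 51, 64.1 and 63.8 in EV (difference 1.75, SE 0.12, adjusted p = 3.58e-09), with no overlap among the 3 groups. Egr1, an immediate early transcription factor, had 25.7, 74.4 and 64.9, 8.37, 7.26 and 5.07 and 137, 156 and 114 CPM in the same order (2.98, adjusted p = 2.80e-05). Without TAZ4SA replicate 3, 5 ERK feedback and 5 Hox genes were higher in TAZ4SA, and 1 Hox gene was higher in YAP5SA.

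Glycolytic, actomyosin and sterol genes lay on the YAP5SA side. Of 21 glycolysis and hypoxia genes, 11 were higher in YAP5SA and 2 in TAZ4SA. Pgk1 (phosphoglycerate kinase) had 390.5, 444 and 368 CPM in TAZ4SA, 951, 694 and 928 in YAP5SA and 346, 475 and 356 in EV, and Aldoa (aldolase A) had 796, 1108 and 506, 1821, 1549 and 1617 and 585, 645 and 578 CPM in the same order, with differences of -1.10 (adjusted p = 6.50e-05) and -1.05 (adjusted p = 7.67e-05). In Pgk1 the TAZ4SA and EV libraries overlapped and the YAP5SA libraries were above both. Gapdh (-1.34) and Eno1 (-1.22) were called the same way, although pseudogenes may take part of their reads, as they may for the actin genes below. Slc2a1, the glucose transporter GLUT1, was the opposite, lowered in YAP5SA only, with 115, 93.8 and 81.2 CPM in TAZ4SA, 50.3, 57.3 and 51.6 in YAP5SA and 91.9, 78.9 and 88.2 in EV (0.87, adjusted p = 1.42e-05). Pdk1 was the other gene higher in TAZ4SA. Of 24 actomyosin and smooth muscle genes, 13 were higher in YAP5SA and 4 in TAZ4SA, and with library totals alone 8 and 6. Cnn2 (calponin 2) had 591, 671 and 554 CPM in TAZ4SA, 1246, 1303 and 1228 in YAP5SA and 376, 319 and 392 in EV (difference -1.06, SE 0.11, adjusted p = 6.37e-07). The cytoplasmic actin genes Actb and Actg1 and the tropomyosin genes Tpm1, Tpm2 and Tpm4 rose in both lines and more in YAP5SA, with differences of -0.36 (Tpm2) to -0.60 (Tpm1). The myosin light chain gene Myl9 and the kinase gene Mylk were lower in YAP5SA, with differences of 1.76 and 2.33. Of 22 sterol genes, 10 were higher in YAP5SA and 0 in TAZ4SA. In TAZ4SA 19 of them were lower than in EV, and the median log2 fold change against EV was -1.39 in TAZ4SA and -0.88 in YAP5SA. The count was 15 without TAZ4SA replicate 3 and 7 without TAZ4SA or YAP5SA replicate 1. Hmgcs1, an early enzyme of the pathway, was not called between the proteins (-0.21). It had 53.9, 45.7 and 145 CPM in TAZ4SA, 95.5, 84.2 and 105 in YAP5SA and 262, 431 and 423 in EV.

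**Figure D5:**
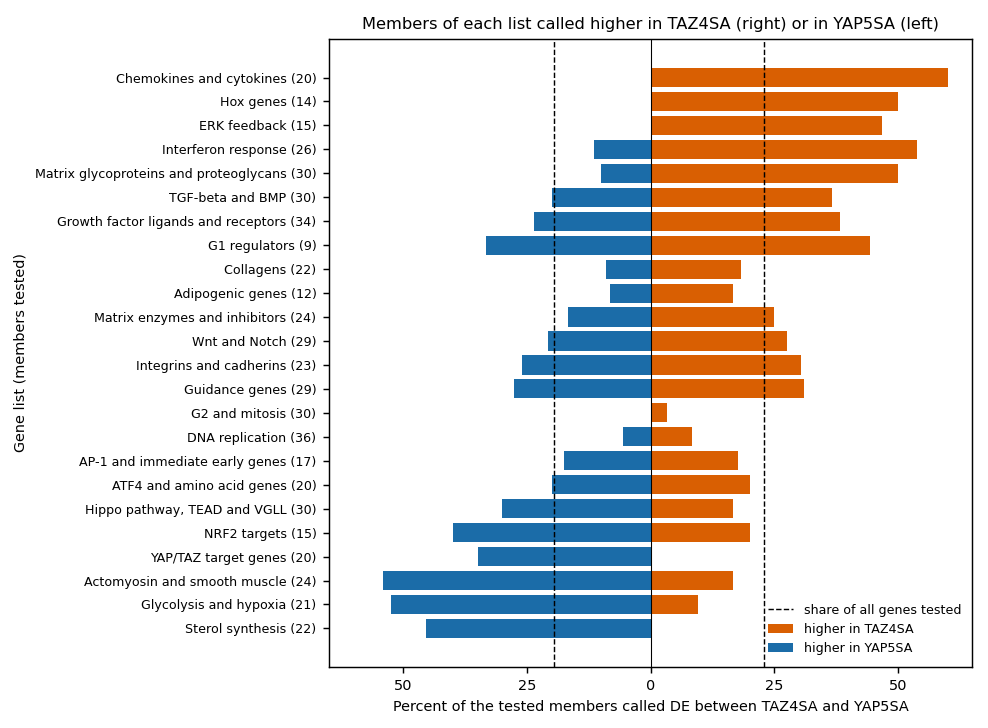
Percent of the tested members of 24 gene lists called higher in TAZ4SA (orange, right) or higher in YAP5SA (blue, left), with the number tested in parentheses and dashed lines at the shares of all genes, 22.8% and 19.6%. Chemokines and cytokines reach furthest to the right (12 of 20) and actomyosin genes furthest to the left (13 of 24), and the Hippo list, here 5 against 9, turns to 12 against 6 when libraries are scaled by their totals alone.

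Few cell cycle genes were called between the proteins. Of 36 DNA replication genes 3 were higher in TAZ4SA and 2 in YAP5SA, and of 30 genes of G2 and mitosis 1, Cenpe, was higher in TAZ4SA and 0 in YAP5SA. Cenpe, a motor of the kinetochore, had 13.5, 10.5 and 80.7 CPM in TAZ4SA and 11.3, 11.3 and 17 in YAP5SA (difference 1.42, adjusted p = 0.0436), but TAZ4SA replicate 3 alone was high, and without it the sign turned and the call was lost. The G2 and mitosis genes higher in TAZ4SA numbered 5 without TAZ4SA replicate 2, 3 without TAZ4SA replicate 1, 2 without EV replicate 2 and 0 without TAZ4SA replicate 3 or any YAP5SA library, and the list's median difference was 0.16, or -0.26 without TAZ4SA replicate 3. The DNA replication genes higher in TAZ4SA fell to 1 without TAZ4SA replicate 3, and those higher in YAP5SA were 4 without YAP5SA replicate 2 and 1 without YAP5SA replicate 3. Cdkn1a, which encodes the cell cycle inhibitor p21, rose in both lines and more in YAP5SA, from 60.2, 44.2 and 48 CPM in EV to 539, 813 and 307 in TAZ4SA and 1294, 1015 and 1039 in YAP5SA (-1.01, adjusted p = 0.00274). Ccnd2, a D-type cyclin, was raised in TAZ4SA only (0.63, adjusted p = 5.65e-05). Of 34 growth factor ligands and receptors 13 were higher in TAZ4SA and 8 in YAP5SA, and of 30 genes of the TGF-beta and BMP pathways 11 (7 without YAP5SA replicate 3) and 6 (3 without TAZ4SA replicate 3). Igf2 was on the YAP5SA side, with 362, 545 and 195 CPM in TAZ4SA, 1105, 1330 and 970.2 in YAP5SA and 100.3, 284 and 169 in EV. On the TAZ4SA side, Id4, an inhibitor of helix-loop-helix factors, had 10.1, 8.62 and 15.9 CPM in TAZ4SA, 2.21, 2.06 and 1.65 in YAP5SA and 1.9, 1.05 and 1.28 in EV (2.55, adjusted p = 2.81e-06). Sema3a, a guidance ligand, had 137, 98.9 and 246, 33, 32.2 and 32.9 and 26.2, 52.8 and 29.5 CPM in the same order (2.30, adjusted p = 4.50e-06).

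The remaining lists had members called on both sides. Of 23 integrin and cadherin genes 7 were higher in TAZ4SA and 6 in YAP5SA. Itga3, an integrin subunit that binds laminin, had 124, 119.5 and 166 CPM in TAZ4SA, 387, 279 and 276 in YAP5SA and 15.5, 15.6 and 16.6 in EV (-1.20, adjusted p = 2.27e-04), and Itga8, one that binds RGD ligands, had 11.3, 14.5 and 15.1, 1.49, 3.29 and 2.28 and 46.6, 71.2 and 49.5 CPM in the same order (2.52, adjusted p = 5.37e-06). Itga3 thus rose and Itga8 fell in both lines, each further with YAP5SA. Of 24 matrix enzymes and inhibitors 6 were higher in TAZ4SA and 4 in YAP5SA. Of 29 Wnt and Notch genes 8 and 6 were higher in TAZ4SA and in YAP5SA, of 29 axon guidance genes 9 and 8, of 17 AP-1 and immediate early genes 3 and 3, of 9 regulators of G1 4 and 3, and of 12 adipogenic genes 2 and 1. Leaving out 1 library moved some of these counts. The guidance genes higher in YAP5SA were 5 without TAZ4SA replicate 3, YAP5SA replicate 1 or YAP5SA replicate 2, and the G1 genes higher in TAZ4SA were 2 without YAP5SA replicate 3. The adipogenic genes higher in TAZ4SA were 1 without TAZ4SA replicate 1, YAP5SA replicate 1 or YAP5SA replicate 3, and those higher in YAP5SA were 2 without TAZ4SA replicate 2. Fzd4, a Wnt receptor, had 13.2, 12.5 and 11.1 CPM in TAZ4SA, 2.57, 3.24 and 1.84 in YAP5SA and 11, 14.6 and 10.8 in EV, so that only YAP5SA lowered it (2.25, adjusted p = 1.16e-05). Of 15 NRF2 targets 3 were higher in TAZ4SA and 6 in YAP5SA, and the ferritin chains split, with Ftl1 at -0.95 and Fth1 at 0.70. Of 20 ATF4 and amino acid genes 4 were higher in each line. Without TAZ4SA replicate 3, 5 NRF2 targets were higher in TAZ4SA and 7 ATF4 and amino acid genes in YAP5SA. Trib3, a pseudokinase, had 85.3, 69.3 and 131 CPM in TAZ4SA, 40.3, 38.3 and 48.2 in YAP5SA and 7.13, 20.2 and 8.94 in EV (1.17, adjusted p = 0.00584), while Asns, asparagine synthetase, had 259, 313 and 383, 601, 481 and 626 and 70.6, 125 and 83.3 CPM in the same order (-0.84, adjusted p = 0.00235). Both rose in both lines, one further in TAZ4SA and the other further in YAP5SA.

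The differences were then looked up in a comparison that shares no library with this one. TAZ-CAMTA1 and YAP-TFE3 are fusion proteins that hold the amino-terminal part of TAZ or of YAP, with 3 libraries each. The labels except only CAMTA1 from the 48 h of confluence, while the study's methods place all lines that contain CAMTA1 at sub-confluence, so that confluence and protein may not be told apart here. The labels of YAP-TFE3 replicate 3 give its replicate number as 3 in one field and 2 in another. Between them 1671 of the tested genes were DE (11.6%), 5.32% higher and 6.32% lower with TAZ-CAMTA1. Among these 1671, 763 had the same sign as TAZ4SA minus YAP5SA and 904 the opposite sign. Of the 89 genes that differed in direction 22 were DE (24.7%), 13 with the same sign as TAZ4SA minus YAP5SA and 9 with the opposite sign. Of the 2867 strength genes with the larger change in YAP5SA 353 were DE (12.3%), 91 with the same and 262 with the opposite sign. Of the 258 with the larger change in TAZ4SA 58 were DE (22.5%), 39 with the same sign and 19 with the opposite. Angpt4 was lower with TAZ-CAMTA1 than with YAP-TFE3 (log2 difference -2.15, adjusted p = 3.27e-04), the sign it had between TAZ4SA and YAP5SA, while Adamts9 turned (-1.43, adjusted p = 0.00326). The differences of Pappa2, Tagln, Prelp and Cdh17 were 0.06, -0.19, 0.66 and 0.42 in that comparison and did not pass the test. Nuak2 and Ajuba, higher in YAP5SA, were higher with TAZ-CAMTA1, by 1.51 (adjusted p = 4.33e-06) and 1.10 (adjusted p = 4.66e-06).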

How the data were processed

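RNA was sequenced from NIH 3T3 cells, in 24 libraries of 8 groups (n = 3 each), of which TAZ4SA, YAP5SA and EV were collected after 48 h of confluence. Per the labels and the study's methods, the libraries were stranded, poly(A)-selected and read as 75 bp pairs on a HiSeq 4000, and reads were aligned with Hisat2 to mm10 with Ensembl 97 genes in bcbio-nextgen. The study's methods also describe gene counts made from Salmon by tximport. The deposited counts are whole numbers, and which program made them, with what strand setting, is not given in the sources used here, so overlapping and antisense genes are uncertain. The authors deposited raw read counts per gene and library (39017 gene IDs, of which 37693 had a symbol and position in GENCODE M21).

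Genes averaging 5 counts or more across the 24 libraries entered the quasi-likelihood test of edgeR 4.0.16, run under R 4.3.3 with TMM factors. All 24 libraries were in 1 fit, and p-values were Benjamini-Hochberg adjusted over 14361 genes with a threshold of 0.05. The contrasts were TAZ4SA minus YAP5SA, each protein minus EV and TAZ-CAMTA1 minus YAP-TFE3. Genes DE between TAZ4SA and YAP5SA were said to differ in direction when they were DE against EV for both proteins with opposite signs, and in strength when the signs were the same. CPM used TMM-scaled library sizes, except for the summed levels of the marker lists, which used library totals alone. Against a group at 0, a fold is a lower bound from 3 counts in each library, averaged as CPM over the group. Genes were named by a rule: of those averaging 50 counts or more over 9 libraries, no overlap between TAZ4SA and YAP5SA and no predicted name, the largest differences (4 in each direction, 3 in each strength class and 2 in each class called for 1 protein), and up to 4 per gene list by size of the difference, with all YAP/TAZ targets and Hippo genes. Further list members and genes that differed in direction were named after their values were seen. The comparison, the genes and the 24 lists were chosen with earlier results of these data known, so counts over lists are descriptions. Promoter windows came from RefSeq (GRCm38.p6). In simulated data with these library sizes, 71% of genes changed by 1 on the log2 scale, and 7.5% of those changed by 0.5, were recovered between TAZ4SA and YAP5SA, with 3 and 1 false calls. The simulation changed 200 of the 14361 genes and gave all groups the same spread. Its rates therefore do not carry over to the measured contrast. Alternatives were DESeq2 1.42.0, other scalings and filters, fewer libraries in the fit, a replicate block, a minimum fold change and leaving out each library in turn. Values of some single genes are not reported here.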

Additional observations from a re-analysis of the deposited data

Results flagged for a closer look

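For 8 genes the effects against EV of the 2 proteins were opposite and their difference passed edgeR's quasi-likelihood test. As log2 differences TAZ4SA minus YAP5SA these were Pappa2 at 5.763, Faah at 4.438, Adamts9 at 4.398 and Prelp at 3.488, with TAZ4SA up and YAP5SA down. With TAZ4SA down and YAP5SA up they were Ang2 at -3.313, Cdh17 at -3.189, Tagln at -2.835 and Angpt4 at -2.82. The largest adjusted p of the 8 was that of Ang2 (1.19e-05). Each was picked by size from the genes that differed in direction, and all 3 TAZ4SA libraries of each lay on one side of all 3 YAP5SA libraries. Reads of Ang2 may be split among similar genes of its family, and Adamts9 and Tagln overlap genes on the opposite strand.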

How the results depend on the processing

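The count of DE genes between TAZ4SA and YAP5SA stayed within 1.5 times the reported 6087 with DESeq2 (6287), other scalings, other filters and the 9-library fit (4327), and was 2910 when only the 6 libraries were fitted. With the 9 libraries alone, 45 genes differed in direction, of which 43 were among the 89, and 2009 in strength. When a change of 1 or more on the log2 scale was required as well, the counts were 1739 between the proteins, 3525 and 5683 against EV for TAZ4SA and YAP5SA, 13 in direction, 641 in strength and 930 for 1 protein only, and 59 genes of the direction and strength classes had the same sign between TAZ-CAMTA1 and YAP-TFE3 in place of 143. The cause was not tested beyond the fewer libraries or genes that these settings use by construction.

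Leaving out 1 library gave 4656 (without TAZ4SA replicate 3) to 7210 (without TAZ4SA replicate 2) DE genes, 7485 to 8878 for TAZ4SA against EV, 9620 to 10467 for YAP5SA against EV, 59 (without EV replicate 2) to 172 (without TAZ4SA replicate 2) in direction, 2553 to 3170 in strength, 1845 (without TAZ4SA replicate 3) to 3512 (without TAZ4SA replicate 2) for 1 protein only, and 130 to 213 with the same sign between the fusions. Of 2968 values of named genes under the alternatives, 2789 kept their sign and their side of the threshold, 157 lost the call, 21 gained one and 1 reversed. That was Cenpe, with 80.7 CPM in TAZ4SA replicate 3 against 10.5 and 13.5 in the other 2. Its difference was -0.1234 without replicate 3 and 1.844 without replicate 2.

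The replicate numbers did not pair the samples. The correlation of deviations between TAZ4SA and YAP5SA libraries of the same number was -0.047, 0.062 and 0.123. With the replicate block there were 5959 DE genes, 88 in direction and 3070 in strength. The alternatives for the fusion comparison other than DESeq2 (173 genes) and the fold minimum, and those for the gene lists, were chosen after seeing the data. With 3 libraries per group, differences of 0.5 on the log2 scale were mostly missed in simulated data. Few genes were changed there and all groups had the same spread. In the measured libraries far more genes were called and TAZ4SA spread more, so the simulated rates do not carry over.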
